A study of Mus musculus with 6 samples.

Results

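Genes used as markers of fetal liver, of liver progenitor cells and of liver tumours were examined in hepatocytes that overexpress AEG-1, the product of Mtdh, a gene known for its overexpression in liver cancer. The 10 genes, taken by name, are Tff3, Epcam, Afp, H19, Gpc3, Cd24a, Krt19, Sox9, Spp1 and Dlk1. A gene counted as measured where at least 1 probe set of the array carried its symbol and no other. By that rule 8 of the 10 genes were measured, by 15 of the 22690 probe sets. The probe set that carries H19 is shared in the annotation with Mir675, and no probe set carries Spp1 there, so neither is analysed here. Of the 12393 genes tested in all, each was represented by its brightest probe set.

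The samples were 6 Affymetrix expression arrays of primary mouse hepatocytes of a mixed B6/CBA strain, 3 from Alb/AEG-1 transgenic mice and 3 from wild-type mice. In this line the transgene is driven by the promoter of albumin, a gene of hepatocytes, as its name says. All cells were untreated and were harvested 24 h after plating on collagen, so both genotypes had spent that time in culture. The sources used here give neither the age of the mice nor the number of animals behind an array, and p-values measure the spread between arrays, which may be partly technical. Values are log2 RMA expression, in which a difference of 1 is a doubling.

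These markers share a history of use rather than a pathway. Fetal hepatoblasts, the common precursors of hepatocytes and bile duct cells, express Afp (alpha-fetoprotein, the fetal counterpart of albumin), the growth-restraining glypican Gpc3, the imprinted genes Dlk1 and H19, and the adhesion molecule Epcam. After birth hepatocytes silence them, while bile duct cells keep Epcam, the keratin Krt19, the transcription factor Sox9 and the surface glycoprotein Cd24a. Several of them are found again in hepatocellular carcinoma, Afp and Gpc3 as clinical markers. Tff3, a small secreted trefoil peptide of mucous epithelia, is known from mouse and human liver tumours.

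Of the 8 measured markers, 2 rose in transgenic hepatocytes and 0 fell, by limma at an adjusted p under 0.05, while 6 did not pass. Over all genes tested 15.9% passed, 6.83% as higher and 9.05% as lower. The markers that rose were Tff3 and Epcam, each about 3-fold. The median difference of the 8 markers was 0.16, beside 0.01 over all genes, and transgenic and wild-type values were fully separate for 3 of the 8 markers, beside 34.5% of all genes. At the level of probe sets 5 of the 15 passed, 2 higher and 3 lower, where 12.0% of all probe sets passed and 6.66% passed as lower. All 3 lower ones belong to Afp.

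The arrays give no detection call, so a background level was set from genes of smell and taste. The 95th percentile of the mean level of 72 probe sets for 68 odorant, vomeronasal, taste and trace amine receptor genes was 4.86, and the array median was 5.63. Of the 8 markers, Tff3, Afp and Sox9 lay above 4.86 in both genotypes. Epcam and Krt19 lay above it in transgenic cells only, Krt19 by 0.05. Gpc3, Cd24a and Dlk1 lay under it in both genotypes, as did 9 of the 15 probe sets. Near background a probe set responds little to a change in its RNA, so a fold there may be understated.

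**Figure D1:**
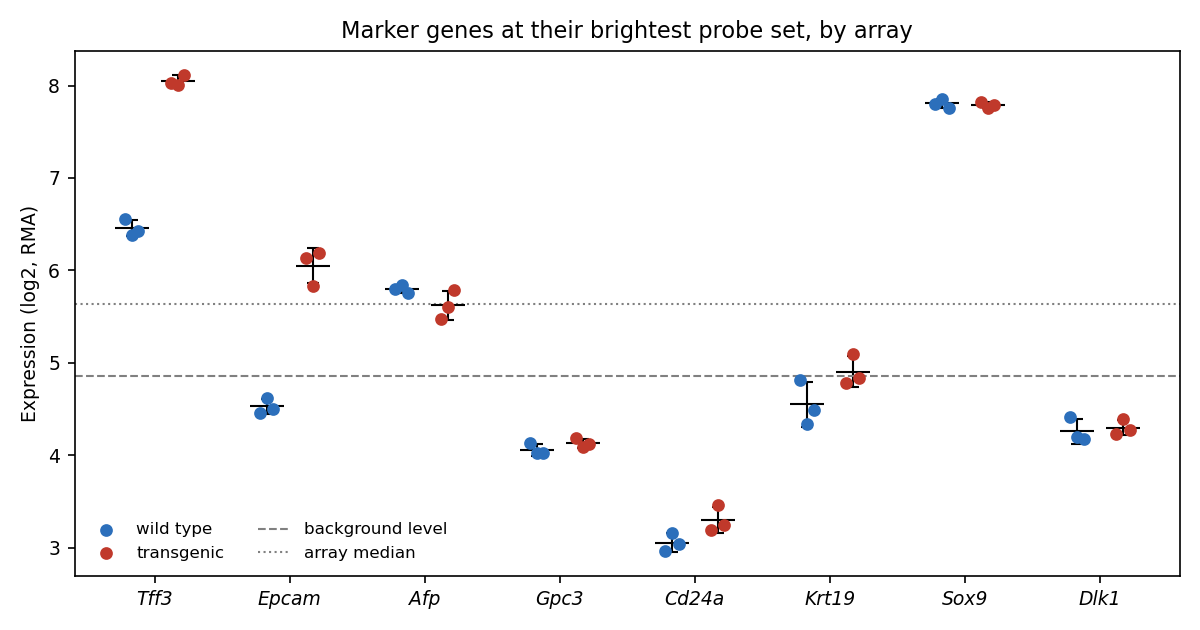
Log2 RMA expression (vertical axis) of the 8 measured markers at their brightest probe set, 1 point per array, with blue for the 3 wild-type and red for the 3 transgenic arrays. Black bars are the mean and SD, the dashed line is the background level of 4.86 and the dotted line the array median of 5.63. Tff3 and Epcam stand apart between genotypes, and Gpc3, Cd24a and Dlk1 lie under the dashed line.

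The transgene's own gene was checked first. The brightest Mtdh probe set read 10.72, 10.40 and 10.81 on the transgenic arrays and 8.75, 8.78 and 8.63 on the wild-type arrays. The difference was 1.92 (SE 0.10), with an adjusted p of 2.04e-05 by limma. Of the 6 Mtdh probe sets, that one alone passed when every probe set was tested.

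Among the secreted and surface markers, Tff3 gave the largest difference. It read 8.03, 8.01 and 8.12 on the transgenic arrays and 6.56, 6.39 and 6.43 on the wild-type arrays. The groups were far apart, and all 6 arrays lay above background. The means were 8.05 ± 0.06 and 6.46 ± 0.09 (SD, n = 3 each). Tff3 thus rose by 1.59 (SE 0.07, 95% confidence interval 1.44 to 1.74), or 3.02-fold, with a limma adjusted p of 5.97e-06. By size this was the 17th largest increase among the 12393 genes.

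Epcam, the epithelial adhesion molecule, read 6.13, 5.84 and 6.18 in transgenic and 4.46, 4.62 and 4.51 in wild-type cells. All 3 wild-type arrays lay under the background level and all 3 transgenic arrays lay above it and above the array median. The means were 6.05 ± 0.19 and 4.53 ± 0.08 (SD, n = 3 each), a rise of 1.52 (SE 0.10, 95% confidence interval 1.30 to 1.75) with a limma adjusted p of 5.24e-05. This is 2.87-fold as measured, and since the wild-type level is near background the fold may be larger. It was the 21st largest increase. Transgenic array 2 gave the lowest of the 3 transgenic values for Epcam, for Tff3 and for Mtdh, and array 3 the highest. With 3 arrays that order is a description only.

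Both rises were present under every setting in which the gene was tested. Tff3 passed under 18 of 18, with differences from 1.56 to 1.64 and adjusted p from 2.15e-10 to 0.00314. Epcam passed under 17 of 17, with differences from 1.46 to 1.63 and adjusted p from 6.37e-08 to 0.00966. Each gene has a single probe set here, so neither rise has a second probe set to set beside it.

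The other surface markers did not pass. Gpc3, a heparan sulphate proteoglycan that restrains growth factor signalling, read 4.19, 4.09 and 4.12 in transgenic and 4.13, 4.02 and 4.02 in wild-type cells. The genotypes overlap, and the difference was 0.08 (95% confidence interval -0.06 to 0.21, adjusted p = 0.459 by limma). Dlk1, a Delta-like protein of hepatoblasts, read 4.23, 4.39 and 4.28 against 4.42, 4.19 and 4.17. Its difference was 0.04 (95% confidence interval -0.15 to 0.23, adjusted p = 0.811 by limma). The only Dlk1 probe set is of a type that can match several transcripts. Both genes were at background, so a low level of either could not be seen.

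Cd24a, a glycosylphosphatidylinositol-anchored protein of progenitor cells that erythroid and B cells also carry, has 3 probe sets, and all lay under background. The brightest read 3.19, 3.46 and 3.25 in transgenic and 2.97, 3.16 and 3.04 in wild-type cells. These groups do not overlap, but the difference of 0.24 (95% confidence interval 0.04 to 0.45) had an adjusted p of 0.104 by limma. With the replicate block the adjusted p was 0.0490. The other probe sets gave -0.08 and -0.11, so the 3 probe sets do not share a direction.

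Afp did not pass at its brightest probe set, while 3 probe sets under background fell. The brightest probe set, 1416646_at, the only one above background, read 5.48, 5.60 and 5.79 in transgenic and 5.80, 5.84 and 5.75 in wild-type cells. The highest transgenic array overlaps the lowest wild-type array, and the difference of -0.18 (95% confidence interval -0.37 to 0.02) did not pass, with an adjusted p of 0.209 by limma. All 5 Afp probe sets were lower in transgenic cells on average, by 0.14 to 0.71, and 3 of them passed. Probe set 1416645_a_at read 3.64, 3.46 and 3.44 against 4.09, 4.39 and 4.18. It fell by 0.71 (SE 0.09), 1.63-fold, with an adjusted p of 0.00211 over all probe sets by limma. The groups do not overlap for this probe set nor for the other 2 that passed.

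The other 2 Afp probe sets that passed, 1436879_x_at and 1436881_x_at, fell by 0.50 and 0.42, with adjusted p of 0.0433 and 0.0323 by limma. Both are of a type that can match several transcripts. All 3 that passed lay under background in both genotypes, where their size is uncertain. As the mean of its 5 probe sets Afp fell by 0.39, with an adjusted p of 0.00322 over all genes by limma. Whether Afp counts among the changed markers therefore depends on how its probe sets are combined. In no setting was Afp higher in transgenic cells, with differences from -0.39 to -0.10. Over all 15 probe sets of the markers 6 had groups that did not overlap, beside 31.3% of all probe sets.

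**Figure D2:**
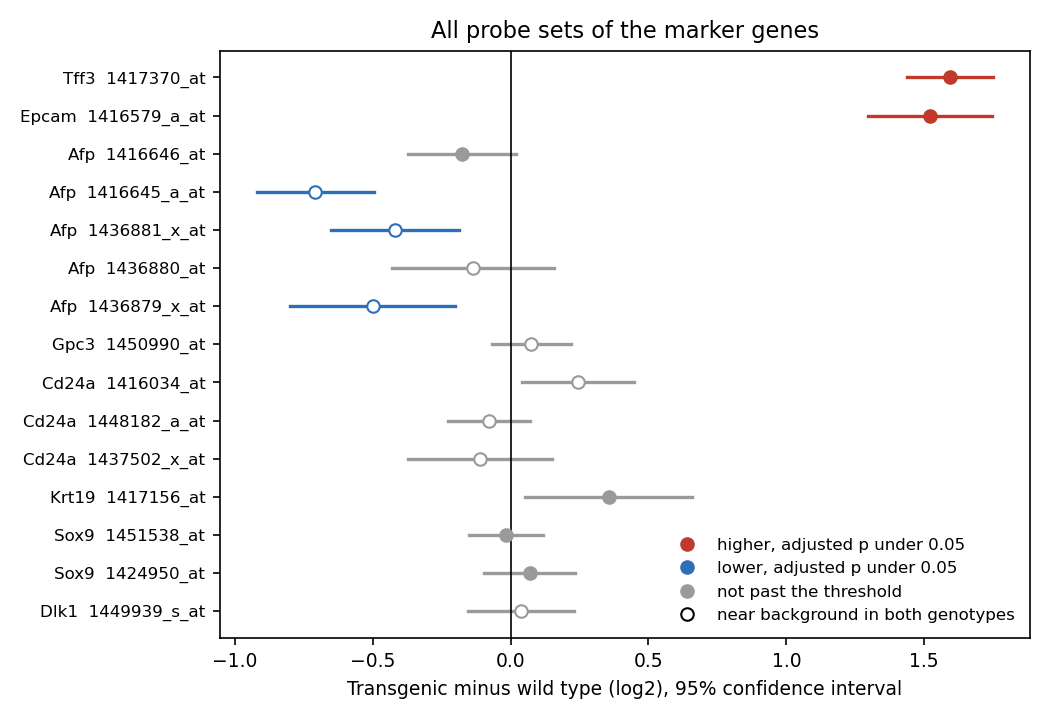
Transgenic minus wild type on the log2 scale (horizontal axis) for each of the 15 probe sets, with the 95% confidence interval as a line. Red and blue mark probe sets past an adjusted p of 0.05 as higher or lower, grey those not past it, and open points lie near background in both genotypes. Tff3 and Epcam lie at 1.59 and 1.52, and all 5 Afp points lie left of 0.

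Of the bile duct and progenitor markers, neither Krt19 nor Sox9 passed. Krt19, the keratin that defines bile duct cells, read 4.78, 5.10 and 4.83 in transgenic and 4.82, 4.34 and 4.49 in wild-type cells. Wild-type array 1 lies among the transgenic arrays and the other 2 lie lower. The difference was 0.36 (SE 0.13, 95% confidence interval 0.05 to 0.66), with an adjusted p of 0.115 by limma. Without wild-type replicate 1 Krt19 passed, at 0.49 and an adjusted p of 0.0288. Its level was close to background in both genotypes.

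Sox9, a transcription factor of bile duct cells and of progenitors, was well above background and was the most tightly measured marker. Its brightest probe set read 7.83, 7.75 and 7.79 in transgenic and 7.80, 7.85 and 7.76 in wild-type cells, so that the genotypes overlap throughout. The difference was -0.02 (95% confidence interval -0.14 to 0.11, adjusted p = 0.891 by limma), an interval that reaches no further than 1.10-fold lower and 1.08-fold higher. The other Sox9 probe set gave 0.07 (95% confidence interval -0.10 to 0.23). The sign of the Sox9 difference changes with the setting.

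**Figure D3:**
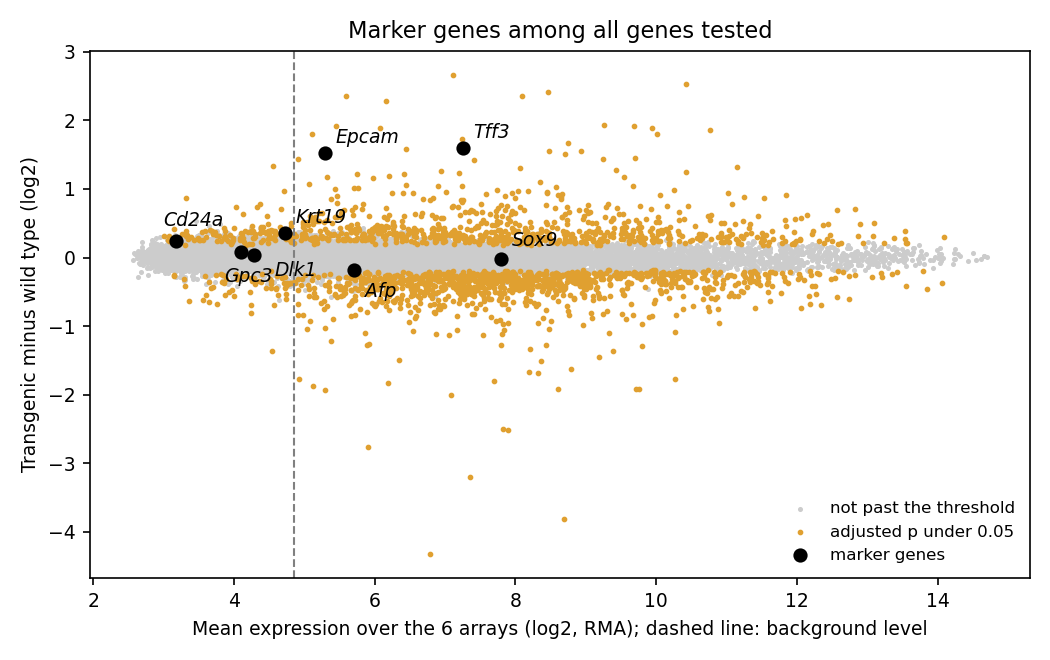
Difference between genotypes (vertical axis, log2) against the mean level over the 6 arrays (horizontal axis, log2 RMA) for all 12393 genes, with the 8 markers in black, genes past an adjusted p of 0.05 in orange and the others in grey. Tff3 and Epcam lie among the largest increases, and the other 6 markers lie within 0.36 of 0.

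The nearest relatives of the markers were measured on the same arrays. Genes of the surrounding lists that are given without a call were chosen after their values were seen. Tff3 lies in a cluster with the trefoil genes Tff2 and Tff1, and 0 of these 2 passed (0 at an unadjusted p under 0.05). Tff1 gave 0.14 (adjusted p = 0.233 by limma) and Tff2, at a level close to background, gave -0.04. Of the other glypicans 2 of 3 rose, beside 6.83% of all genes. Gpc4, which neighbours Gpc3 on the X chromosome, rose by 0.35 (SE 0.06, adjusted p = 0.00879 by limma), from 8.56 to 8.90. Gpc1 rose by 0.41 (adjusted p = 0.0395 by limma), a call lost under 7 of 18 settings, among them those without transgenic replicate 1, 2 or 3 or wild-type replicate 3, which left 1 risen glypican. Afp lies between albumin and Afm, the gene of the vitamin E carrier afamin, and neither passed. Alb gave 0.01 (95% confidence interval -0.11 to 0.13) and Afm gave 0.07.

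Position among other genes was also described, since the mice are of a mixed strain. Tff3 and Epcam both lie on chromosome 17, and of the 5 nearest measured genes on each side 2 of 10 passed for Tff3 and 3 of 10 for Epcam, beside 15.9% of all genes. Around Tff3 these were the glyoxalase gene Glo1, up by 0.48, and the phosphate antiporter gene Slc37a1, up by 0.43. Around Epcam the GTPase gene Rhoq rose by 0.55, Pigf, a gene of anchor lipid synthesis, rose by 0.34 and Ppp1r21 fell by 0.36. No neighbour within 5 genes of Tff3 or Epcam reached the size of its marker. Around Afp 2 of 10 passed, near the share over all genes, both lower, Slc4a4 at -0.44 and Ankrd17 at -0.27, both named after their values were seen. Strain differences near these genes were not tested, and the sizes of neighbours are a description only.

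**Figure D4:**
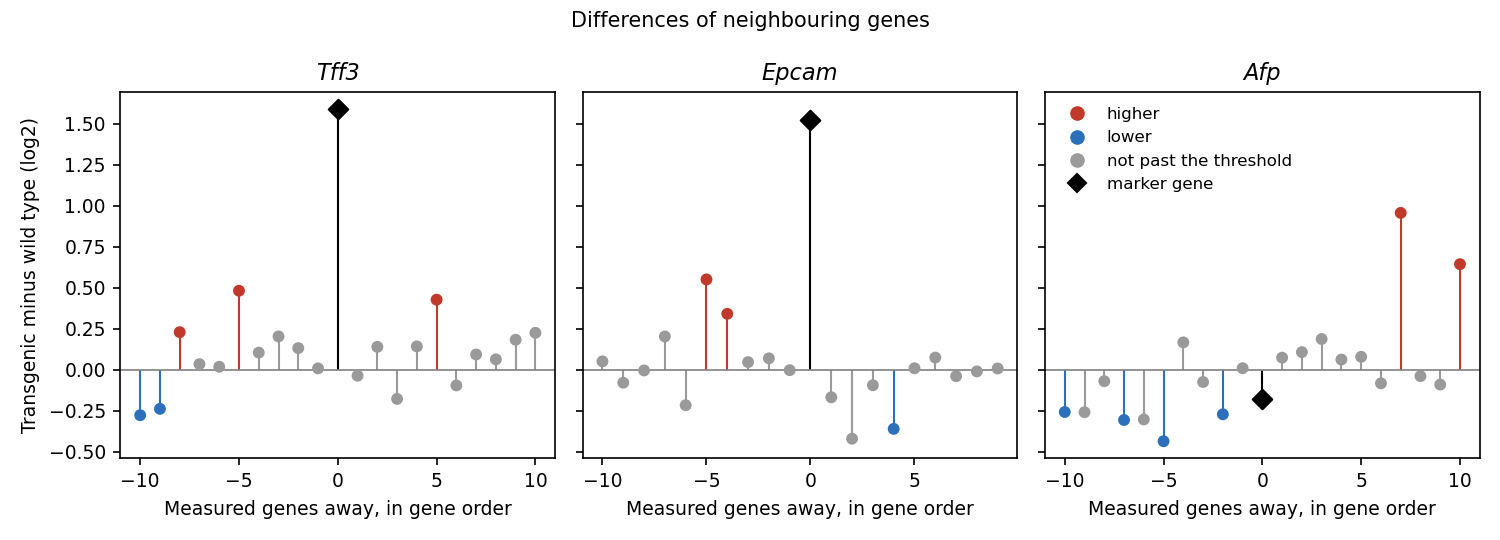
Transgenic minus wild type on the log2 scale (vertical axis) for up to 10 measured genes on each side of Tff3, Epcam and Afp, in gene order (horizontal axis, number of measured genes away). Black diamonds are the markers at 1.59, 1.52 and -0.18, and red, blue and grey points are neighbours that were higher, lower or not past the threshold. The largest neighbour differences were 0.48 (Glo1) around Tff3 and 0.55 (Rhoq) around Epcam.

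The promoters of Epcam and Afp are shown because Epcam rose, Afp did not pass at its brightest probe set, and factors known to act on Afp changed. RefSeq's promoter table (GRCm38.p6, 250 bases before to 50 after the annotated start) has entries for 5 of the 10 markers. In the sequences that follow capitals mark TATAAA (the letters of a TATA box) and TGTTT (the core of FOXA sites). They also mark GTTAA (a half-site of HNF1) and AGGTCA (a half-site of nuclear receptors), all searched on both strands. Epcam is chr17:87635729-87636028 and Afp is chr5:90490464-90490763, both on the plus strand.
Epcam: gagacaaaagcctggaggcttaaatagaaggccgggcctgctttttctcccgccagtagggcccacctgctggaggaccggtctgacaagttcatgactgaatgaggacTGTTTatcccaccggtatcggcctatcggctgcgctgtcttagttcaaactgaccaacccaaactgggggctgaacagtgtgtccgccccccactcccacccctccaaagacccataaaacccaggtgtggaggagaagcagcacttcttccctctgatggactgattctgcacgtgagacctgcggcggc
Afp: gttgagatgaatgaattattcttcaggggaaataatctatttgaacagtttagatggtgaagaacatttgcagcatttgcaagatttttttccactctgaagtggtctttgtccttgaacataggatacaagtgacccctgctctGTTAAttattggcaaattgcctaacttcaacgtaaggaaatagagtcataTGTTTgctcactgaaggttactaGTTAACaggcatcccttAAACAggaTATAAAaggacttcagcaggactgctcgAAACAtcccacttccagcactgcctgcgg

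The Afp window holds 3 matches to TGTTT, 3 to GTTAA, of which a pair overlap as a palindrome, and 1 to TATAAA. The TATAAA begins at position -7 from the annotated start, and 1 TGTTT match lies after the start, at position 22. The Epcam window holds 1 match to TGTTT and 0 to GTTAA or TATAAA, and AGGTCA is in neither. Of the 32851 promoters of this length, 50.5% hold TGTTT, 24.2% GTTAA, 13.6% TATAAA and 16.3% AGGTCA. The Epcam window is 57.0% G and C with 11 CG dinucleotides, and the Afp window is 40.0% with 3. A match is a description of letters and shows no binding.

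Among transcription factors known to act on Afp, H19 or Gpc3, 2 of 12 measured genes rose and 2 fell. The shares over all genes were 6.83% higher and 9.05% lower. Foxa1, a pioneer factor of the liver, read 6.65 ± 0.09 against 7.70 ± 0.07 (SD, n = 3 each) and fell by 1.05 (SE 0.07), 2.08-fold, with an adjusted p of 6.06e-05 by limma. Its relative Foxa3 rose by 0.52 (SE 0.06, adjusted p = 0.000984 by limma), and both calls were present under all 18 settings. Cebpa, a factor of mature hepatocytes, fell by 0.25 and Cebpb rose by 0.24. The Cebpa call was lost under 5 and the Cebpb call under 7 of 18 settings. Leaving out 1 array gave 1 risen gene in 5 of 6 cases (2 without wild-type replicate 3) and 1 fallen gene without transgenic replicate 1 or 2 or wild-type replicate 2. Zbtb20, a repressor of Afp after birth, gave 0.12 (95% confidence interval -0.17 to 0.41), and Zfhx3, another repressor, gave -0.10 (95% confidence interval -0.25 to 0.05).

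Other genes of fetal liver or liver tumours moved in both directions. Of 31 measured, 3 rose, 3 fell and 25 did not pass, beside 6.83% of all genes higher and 9.05% lower. The median difference was 0.06, beside 0.01 over all genes. Grb10, an imprinted adaptor that restrains insulin signalling, rose by 0.46 (adjusted p = 0.0112 by limma), but only 1 of its 3 probe sets passed. Robo1, a guidance receptor at background, rose by 0.32 and Ctnnb1, which encodes beta-catenin, by 0.19, calls lost under 6 of 16 and 11 of 18 settings. Without transgenic replicate 1 or 2, or wild-type replicate 1 or 3, 1 gene rose in place of 3. Ly6d, a small surface antigen, fell by 0.54 (adjusted p = 0.00272 by limma). The Wnt pathway receptor gene Lgr5 fell by 0.44 and the microvillus gene Vil1 by 0.37, both at background. The fetal growth factor gene Igf2, imprinted in the same domain as H19, gave 0.11 (95% confidence interval -0.06 to 0.28).

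Other genes of bile duct and progenitor cells gave 4 risen and 0 fallen of 25 measured, beside 6.83% of all genes higher and 9.05% lower, with a median of 0.08. Cdh1, E-cadherin, an adhesion molecule of hepatocytes and bile ducts alike, read 9.10 ± 0.06 against 8.36 ± 0.12 (SD, n = 3 each). It rose by 0.74 (SE 0.08, adjusted p = 0.000531 by limma) under all 18 settings. The laminin receptor gene Itga6 rose by 0.52 (adjusted p = 0.00547 by limma) with both of its probe sets. Cd44, a hyaluronan receptor, rose by 0.34 and the chemokine receptor gene Cxcr4 by 0.37. Wild-type levels of Itga6, Cd44 and Cxcr4 lay under background, and Cxcr4 lay under it in transgenic cells too, at 3.92. The Cd44 call was lost under 7 of 16 settings. Of the 25 genes 12 lay at or under background over the 6 arrays, among them the bile duct genes Krt7 at 3.62 against 3.65, Cftr at 3.20 against 3.15 and Muc1 at 4.86 against 4.65.

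Genes of Notch, YAP and TGF-beta signalling, pathways known to drive Sox9 and bile duct fate, gave 0 risen and 5 fallen of 27 measured, beside 9.05% of all genes lower. Jag1, a Notch ligand, fell by 0.85 (SE 0.12), 1.80-fold, with an adjusted p of 0.00228 by limma, and its other probe set gave -0.19. Wwtr1, which encodes the YAP partner TAZ, fell by 0.69 (SE 0.07, adjusted p = 0.000467 by limma) with all 3 of its probe sets past the threshold. Ccn1, a secreted YAP target, fell by 0.43 with both probe sets. Tgfbr2, a TGF-beta receptor, and Notch2 fell by 0.50 and 0.27, but each call was lost with the mean of the gene's probe sets, at -0.16 and -0.08. The median of the list was -0.04.

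**Figure D5:**
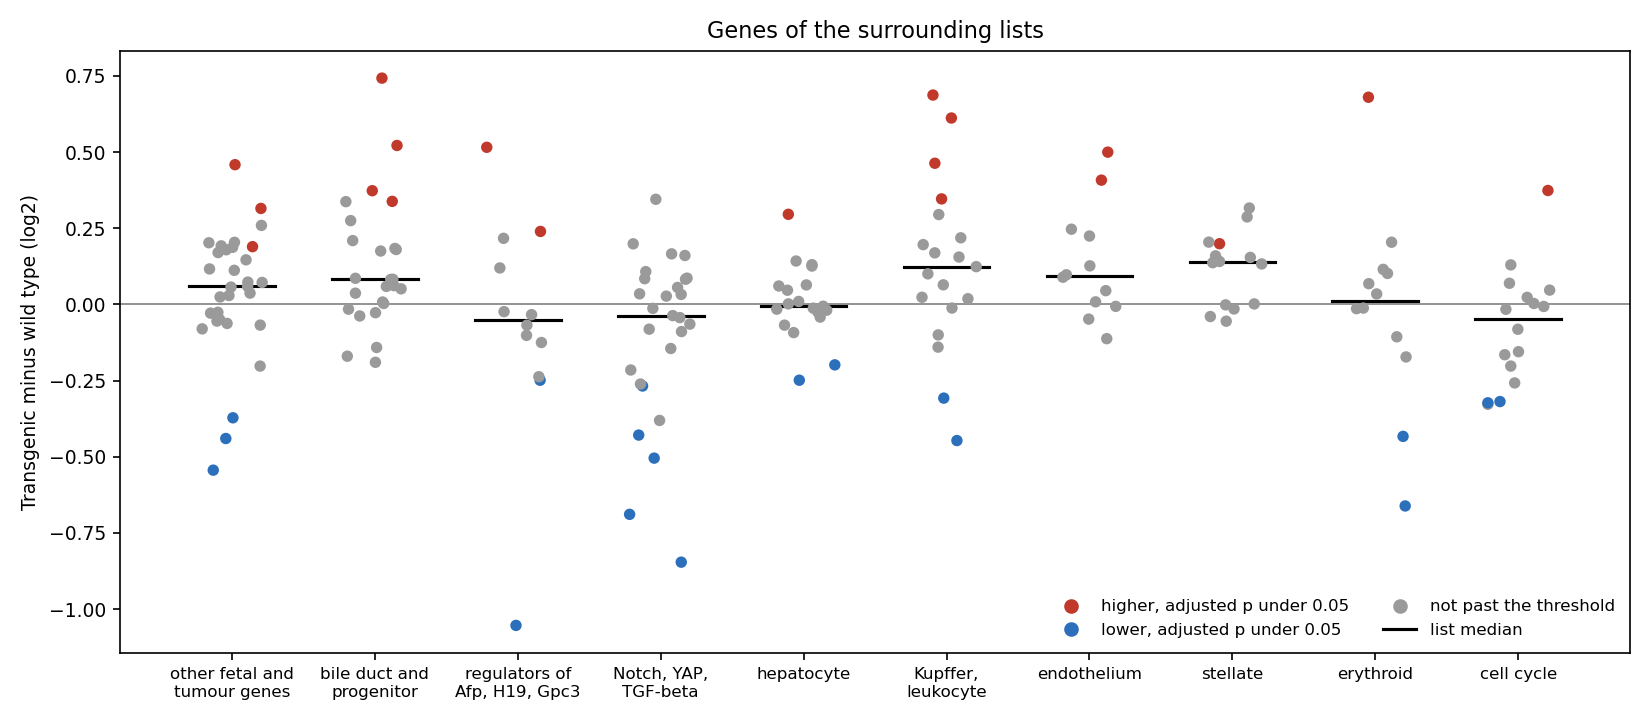
Transgenic minus wild type on the log2 scale (vertical axis) for each measured gene of 10 surrounding lists, 1 point per gene at its brightest probe set. Red and blue mark genes past an adjusted p of 0.05 and black lines are list medians. Foxa1 at -1.05 is the lowest point and Cdh1 at 0.74 the highest.

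Markers of the cells in the samples were set beside these results. The shares to set beside each count are 6.83% of all genes higher and 9.05% lower. Genes of mature hepatocytes were above background in 19 of 19 measured, with 1 risen, the gluconeogenic gene Pck1 by 0.30, and 2 fallen, Cebpa and the tyrosine-breakdown gene Hpd by 0.20. Without transgenic replicate 1 or 2, or wild-type replicate 2, 0 genes of the list fell, and without any other single array 1 fell. Without transgenic replicate 1 the Pck1 call was lost too, and the Hpd call was lost whichever array was left out. Their summed signal on the linear scale ran from 221159 to 222968 on the transgenic and from 218722 to 222281 on the wild-type arrays. Such a sum, here and for the lists below, weighs the brightest genes of a list most. In such samples fewer cells of a type and less RNA per cell cannot be told apart. Kupffer cell and leukocyte markers gave 4 risen and 2 fallen of 19, with Itgam, Cd163 and Ms4a1 at or under background. Their sums were 2140 to 2216 against 2083 to 2274. The brightest of these genes, Cd14, read 8.77 against 9.22, so overlapping sums do not show that the list was unchanged. The risen were Ptprc by 0.61, Mrc1 by 0.46, Marco by 0.69 and C1qc by 0.35, and the fallen Cd14 by 0.45 and Cd163 by 0.31. Without transgenic replicate 1 or wild-type replicate 2, 2 genes of that list rose in place of 4, and without transgenic replicate 1 or 2 or wild-type replicate 3, 1 fell in place of 2. The calls of Marco, C1qc and Cd163 were lost under 5 of 17, 6 of 18 and 5 of 16 settings.

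Endothelial markers gave 2 risen, Clec4g by 0.50 and Kdr by 0.41, and 0 fallen of 12. Beside this list and those that follow, 6.83% of all genes were higher and 9.05% lower. Endothelial sums were 983 to 1052 against 836 to 927, with 5 of 12 genes at or under background. Without transgenic replicate 2 or 3, or wild-type replicate 2, 1 rose, and without wild-type replicate 1, 3 rose. The Kdr call was lost under 7 of 18 settings, 4 of which leave out 1 array, and the other Clec4g probe set gave 0.17 and did not pass. Stellate cell markers gave 1 risen, Lum by 0.20, of 14, with sums of 1188 to 1278 against 1107 to 1189 and 4 at or under background, and without transgenic replicate 1 or 3, or wild-type replicate 1 or 2, 0 rose (1 in the full fit). The Lum call itself was lost whichever array was left out. Erythroid markers gave Car1 risen by 0.68 and Car2 and Klf1 fallen by 0.66 and 0.43, of 12. Their sums were 1878 to 1946 against 1893 to 2008. Of the 12 genes 6 lay at or under background, among them the globin genes Hba-a1, Hbb-b2, Hbb-y and Hba-x. The bile duct list, which also holds the hepatocyte keratin genes Krt8 and Krt18, summed to between 29403 and 29587 against 26346 and 27164. These keratins make up most of that sum, so it says little of bile duct genes. Krt8 read 13.57 against 13.49 and Krt18 read 13.83 against 13.65. The part of these cell types in the Tff3 and Epcam results was not tested. Cell division genes gave 1 risen, Ccne1 by 0.37, and 2 fallen, Pcna by 0.32 and Mcm5 by 0.32, of 16. Of the 16 genes 9 lay at or under background, Mcm5 among them in both genotypes. The Mcm5 call was lost under 10 of 16 settings, 5 of which leave out 1 array, while the Pcna call was lost under none of those.

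Control signals of RNA quality overlapped between genotypes. The 3' minus 5' signal of the Gapdh control ran from 0.10 to 0.11 in transgenic and from 0.01 to 0.13 in wild-type arrays (two-sided exact permutation p = 0.6). For the Actb control it ran from 0.84 to 0.92 and from 0.87 to 0.93 (exact permutation p = 0.5), where the smallest p with 3 arrays against 3 is 0.1.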

How the data were processed

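The deposited values are log2 expression per probe set. The submitters' processing notes name RMA and Affymetrix Expression Console, with no version. RMA equalises the arrays, so a change shared by most genes is not visible. Symbols came from the platform annotation, with 20351 of 20380 single-symbol probe sets matched by gene ID to RefSeq (GRCm38.p6), which also gave gene order. Genotypes were compared over all genes with limma 3.58.1 (lmFit, eBayes, two-sided) in R 4.3.3 and Benjamini-Hochberg adjustment. A second fit covered all 22626 probe sets other than controls. The procedure was tested on simulated data. The naming rule covered the markers and up to 6 called genes of each of 13 other lists. Members and lists were chosen with earlier results of these data known, so counts over them are descriptions. The labels call the arrays biological replicates without naming animals, and their number limits the precision. Alternatives covered the probe set rule, filters, normalization, variance model, replicate block and leaving out each array.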

Additional observations from a re-analysis of the deposited data

How the results depend on the processing

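Tff3 and Epcam passed under every alternative that tested them, while leaving genes at or under the array median out of the fit removed Epcam and left 1 marker past the threshold. The replicate block gave 3 markers past the threshold, Cd24a added at 0.24, and 1505 genes in all. Same-numbered arrays shared little deviation (r = -0.01, -0.01 and 0.10), where differently numbered arrays gave r from -0.07 to 0.07. The number was therefore not taken as a pairing. Over all genes 1967 passed, against 1271 without moderation of variances, 367 when tested against a fold of 1.2, and 1267 to 1700 when 1 array was left out, the lowest without transgenic replicate 1. Sox9, not past the threshold under any setting, changed sign to 0.027 as the mean of its probe sets and to 0.0174 after quantile normalization, and ran from -0.039 to 0.0087 with 1 array left out. Dlk1 ran from -0.0079 to 0.116 there. The other 6 measured markers kept their direction under every alternative that tested them. Most alternatives use the same brightest probe set. Cd24a gave only 0.0177 as the mean of its 3 probe sets, of which 2 were lower in transgenic cells. With the array median as the reference 4 markers were near background in both genotypes, and with the 99th percentile of the receptor genes, at 5.47, also 4, in place of 3. With 10 neighbours on each side 5 of 20 passed around Tff3, 3 of 19 around Epcam and 6 of 20 around Afp, beside 15.9% of all genes. Low signal limits Gpc3, Cd24a, Dlk1, Krt19 and 4 of the 5 Afp probe sets.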
